A study of Danio rerio with 18 samples.

Results

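The 300 genes described here were mRNAs whose normalized counts in zebrafish were lower in the polysome-bound than in the polysome-unbound fraction of the egg, and higher in the bound fraction at 128 cells, on the scale of the deposited table. They were chosen from a table of 27015 genes by the ratio r, the log2 of the polysome-bound over the polysome-unbound normalized count, each plus 1. A member had at least 100 normalized counts in all 4 early unfractionated libraries, an r of -0.5 or less in the egg, an r of 0.5 or more at 128 cells, and a difference between them of at least 1.5. Of the 13051 genes that reached the minimum amount, called eligible below, 406 met these conditions, and the 300 with the largest difference were kept. Values of r in the egg and at 128 cells therefore chose the members and are given as a description, with no test. At the edge of the choice, TTC4 (difference 1.73) and POU6F1 (1.73) were the last genes inside, and si:ch73-204p21.2 (1.73) and EPHA4 (1.72) the first outside.

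A fish egg carries a store of maternal mRNA made during oogenesis, and the embryo divides on this store before its own genome is transcribed. Many stored mRNAs are kept translationally silent by short poly(A) tails and repressor proteins, and are recruited to ribosomes after egg activation. An mRNA carried by several ribosomes at once sediments with polysomes, so its share in that fraction is a common measure of how actively it is translated. Genome activation in zebrafish follows the rapid cleavage divisions, and many maternal mRNAs are degraded around that time.

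The study profiled pooled, wild-type (AB) whole embryos as eggs, at 1, 16 and 128 cells, and at 3.5 and 5.3 hours post fertilization (hpf). At each of the 6 stages 3 libraries were sequenced from RNA depleted of ribosomal RNA, one from the polysome-bound fraction, one from the polysome-unbound fraction and one from unfractionated RNA, giving 18 libraries with 1 library per stage and fraction. No condition had a replicate, no treatment or mutant was included, and embryos of a stage were pooled, so differences between embryos were not measured. The deposited libraries held 50.75 to 66.05 estimated reads (in units of 1e6) in the bound, 30.67 to 71.65 in the unbound and 35.78 to 60.15 in the unfractionated RNA. At this depth the counting error of a member's difference in r between egg and 128 cells had a median of 0.0668 (range 0.0118 to 0.379, log2), and it exceeded 0.2 in 35 members. That error covers counting only. The stage labels were checked against markers in unfractionated RNA: 8 maternal markers summed to 159086 to 177228 normalized counts in the 4 early and 162068 to 179871 in the 2 late libraries, a sum that does not separate the stages, and 6 markers of embryos after genome activation summed to 72.8 to 262 in the early and 10077 to 93368 in the late libraries. Among markers of maternal tissue, 3 of ovarian follicle cells summed to 4987 to 7105 normalized counts in the early and 3087 to 6631 in the late libraries, nearly all of it from cyp17a1 (4837 to 6991 early), while amh was at 87.1 to 111.7 and gsdf at 15.3 to 38.3 early. The 3 blood markers summed to 10.8 to 20.6 early. The part of follicle cells in the results was not tested.

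On the deposited scale the shift of the members toward the bound fraction lay mainly between 1 and 16 cells. Their median r was -0.97 in the egg, -0.67 at 1 cell, 0.51 at 16 cells and 1.16 at 128 cells, while the median of the eligible genes stayed between -0.02 and 0.09 over the same 4 stages. At 1 cell, after fertilization, 192 of the 300 members were at an r of -0.5 or less, and at 16 cells 150 were at 0.5 or more. Of the eligible genes, 31.9% were at -0.5 or less at 1 cell and 38.1% at 0.5 or more at 16 cells. The rise from egg to 128 cells was fixed by the choice. Where it fell among the 3 intervals was not. The largest of the 3 differences lay between 1 and 16 cells in 200 members, between 16 and 128 cells in 68, and between egg and 1 cell in 32 (66.7%, 22.7% and 10.7%). Among eligible genes the shares were 40.3%, 26.1% and 33.6%. These differences carry their sign, so in a gene that fell throughout, the largest is its smallest fall. Eligible genes include many that fell, so their shares are no like-for-like background for members, which were chosen for a rise. The interval from 1 to 16 cells was not particular to the members. The 300 genes with the opposite course, bound in the egg and unbound at 128 cells, had the median difference of largest size there, -2.07. It was -0.3 from egg to 1 cell and -1.01 from 16 to 128 cells. Eligible genes also moved by at least 1 most often there, up in 11.6% and down in 12.2%. Over the intervals before and after, 3.89% and 4.5% moved up and 4.14% and 7.02% down by as much.

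**Figure D1:**
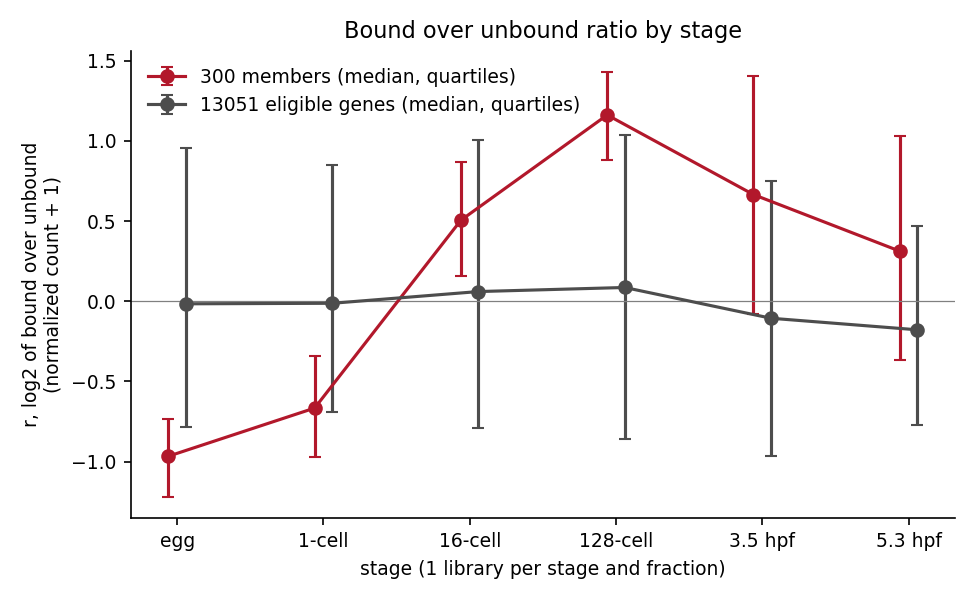
The vertical axis is r, the log2 of polysome-bound over polysome-unbound normalized counts, and the horizontal axis the 6 stages. Points are medians and bars the quartiles over 300 members (red) and 13051 eligible genes (grey). The members' median goes from -0.97 in the egg to 1.16 at 128 cells and then to 0.31 at 5.3 hpf, and the egg and 128-cell values chose the members.

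From 1 to 16 cells r moved up by at least 1, a doubling of the ratio, in 187 of 300 members (62.3%), against 11.6% of the eligible genes. The median difference was 1.2 for members and 0.03 for eligible genes. Members were chosen for a rise of at least 1.5 over the 3 intervals together, so an excess over eligible genes was built into this contrast. Smaller differences stood on either side of this step, with a median of 0.29 from egg to 1 cell and 0.71 from 16 to 128 cells. In all, 209 members (69.7%) had a higher r at each of the 3 steps, against 12.2% of eligible genes, and the choice of members itself favours such a course. When r was taken relative to the eligible median of each stage, the largest step lay between 1 and 16 cells in 197 members.

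The step from 1 to 16 cells came chiefly from the bound fraction. Across members the median bound normalized count differed by 0.95 (log2), the unbound count by -0.21 and the unfractionated amount by -0.03. From 16 to 128 cells the bound and unbound fractions moved by similar amounts in opposite directions, 0.34 and -0.34, and the unfractionated amount by -0.18. As a share of all normalized counts, the members took 1.17% of the bound library in the egg, 1.32% at 1 cell, 2.61% at 16 cells and 3.51% at 128 cells. Their share of the unbound libraries went the other way, from 3.64% and 3.35% to 2.71% and 2.14%. In unfractionated RNA it was 2.79%, 2.75%, 2.65% and 2.32%.

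**Figure D2:**
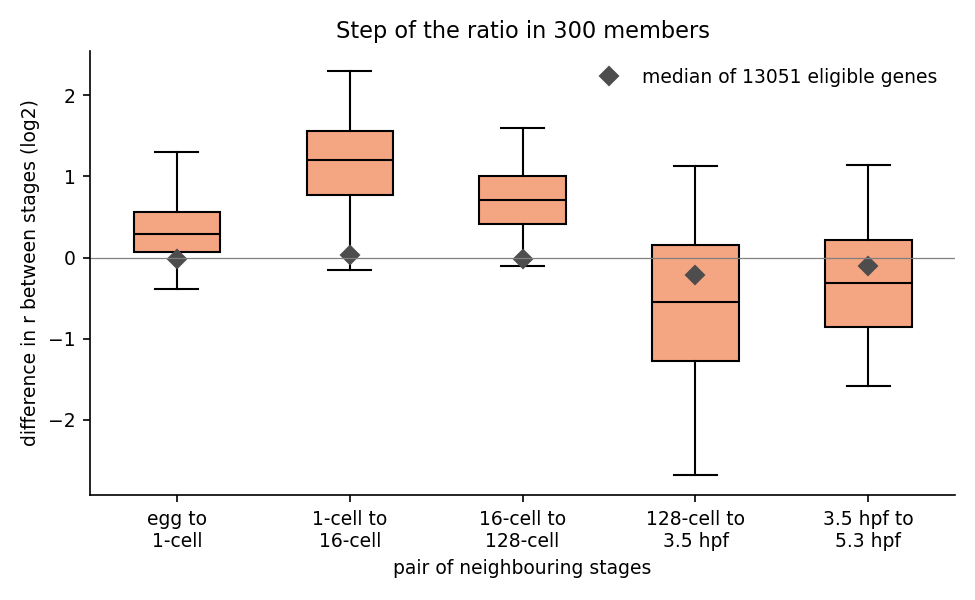
The vertical axis is the difference in r (log2) between neighbouring stages, named on the horizontal axis. Boxes show the median and quartiles of 300 members, whiskers the 5th and 95th percentiles, and diamonds the median of 13051 eligible genes. The box from 1 to 16 cells is the highest, with a median of 1.2, and the boxes after 128 cells have medians of -0.55 and -0.31.

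**Figure D3:**
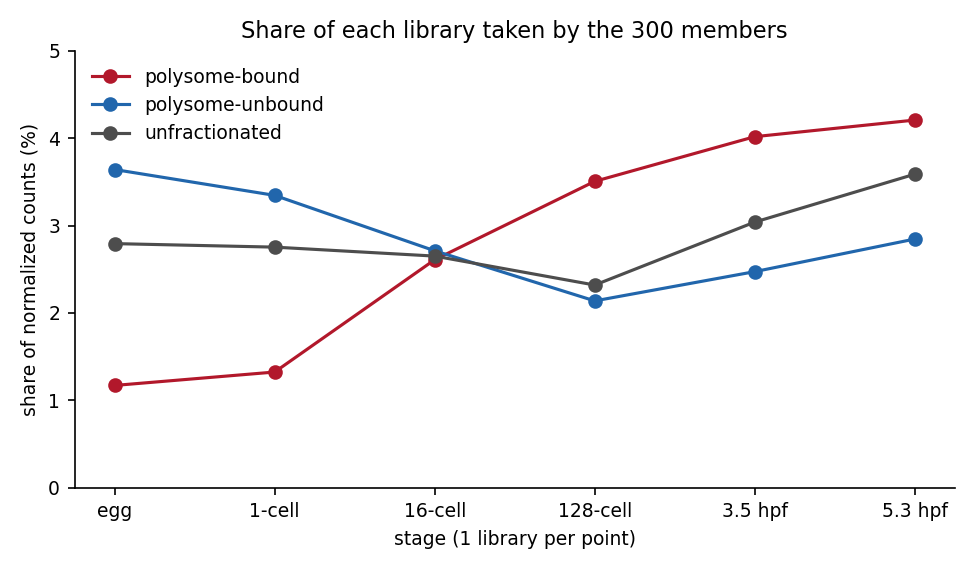
The vertical axis is the percentage of a library's normalized counts that came from the 300 members, and the horizontal axis the stage, with 1 library per point. The bound share (red) goes from 1.17% in the egg to 4.21% at 5.3 hpf, and the unbound share (blue) is above it in the egg and at 1 and 16 cells and below it from 128 cells on.

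Over the 4 early unfractionated libraries, whose values the choice used only as a minimum, no member changed in amount by the slope over stage order in limma (adjusted p at least 0.605 for every member). The call rate over all 21173 genes tested was 0% upward and 0% downward, so this count says nothing about the members in particular. At an unadjusted p of 0.05, limma gave 5 members a positive and 37 a negative slope, 14.0% in all, beside 3.44% and 4.73% of all genes tested. The median slope was -0.09 per stage (log2) for members and -0.01 for eligible genes. This fit had 1 library per stage and 2 residual degrees of freedom, and no count model was run on it.

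The unlike sizes of the steps can be seen in single genes. MBLAC1, whose human counterpart is an endonuclease acting on histone pre-mRNA, had the largest difference of all members, 5.33. Its r was -2.9 in the egg, -1.25 at 1 cell, 1.51 at 16 cells, 2.43 at 128 cells, 1.16 at 3.5 hpf and 0.22 at 5.3 hpf. It was a scarce mRNA, with 44.7 bound and 340.5 unbound normalized counts in the egg and 444.8 and 81.7 at 128 cells, and counting errors of r of 0.271 and 0.147.

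C1D, a cofactor of the nuclear exosome, was more abundant. Its bound normalized counts were 1255 in the egg, 1401 at 1 cell, 3454 at 16 cells and 6275 at 128 cells, and its unbound counts were 4378, 3136, 2535 and 2042. Both fractions thus moved, and in opposite directions. Its amount in unfractionated RNA was 4429, 3609, 3417 and 2315 over the same stages.

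The abundant nucleosome-binding protein gene hmgn1a had r of -1.3, -0.86, 1.3 and 2.03 from egg to 128 cells. ZNF395, a zinc finger transcription factor gene, had -0.8, -0.79, 1.85 and 2.62. From egg to 1 cell r moved in hmgn1a and hardly in ZNF395, and in both it crossed 0 between 1 and 16 cells. The RNA-binding protein gene rbm39b (-0.69, -0.22, 1.25 and 2.59), the splicing and genome maintenance factor gene sde2 (-0.6, -0.24, 1.44 and 2.44), the membrane scaffold gene FLOT2 (-0.76, -0.77, 1.22 and 2.38) and GMEB2, a DNA-binding protein gene (-1.28, -0.63, 0.66 and 1.81), also crossed 0 between 1 and 16 cells. TWF1, which codes for the actin monomer-binding protein twinfilin, had -1.38, -0.85, 1.26 and 1.62, and was chosen for naming after its values were seen.

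Other members followed another course. SUOX, the mitochondrial sulfite oxidase gene, made most of its way by 1 cell, with r of -1.95, -0.03, 0.23 and 1.18. PFKFB2, a bifunctional regulator of glycolysis, also moved first, with r of -1.38, 0.17, 1.27 and 1.17. TMEM145 was lower at 1 cell than in the egg before it moved up, with -1.83, -2.49, 0.43 and 1.6. ELK4, an ETS family transcription factor gene, overshot, with -2.25 and -1.42 before and 1.98 and 0.94 after the step, on only 38.8 unbound normalized counts at 16 cells.

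The members came from many functional classes. They carried 277 gene symbols, of which 29 were clone names, 23 had no symbol, and 9 were loci assembled by the authors. Their median early amount was 2351 normalized counts, against 1581 for eligible genes. Of 23 lists set up for this description, 47 members fell into at least one, and since 300 members make up 2.30% of the eligible genes, list shares are set against that value. Small GTPases and their regulators held 8 members of 231 eligible genes (3.46%), membrane transporters 6 of 246, zinc finger genes 5 of 207, cell cycle and replication 4 of 124, chromatin 4 of 131 and splicing 4 of 88 (4.55%). The lists of 90 cytosolic ribosomal protein genes, 70 mitochondrial ribosomal protein genes, 93 respiratory chain genes, 290 ubiquitin system genes and 72 deadenylation and decay genes held no member. At a share of 2.30% most of these lists would hold few members. The lists match gene symbols and do not cover a class in full. C1D, for example, is a cofactor of the nuclear exosome and was not in the decay list. A list of nucleolar and ribosome assembly genes, added after the members had been seen, held 11 of 101 (10.9%), which is no independent evidence. No list was tested for enrichment.

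Genes of the cell division machinery were among the most abundant members. GMNN codes for geminin, which blocks the licensing factor encoded by CDT1, so that DNA is copied once per cycle. GMNN had bound normalized counts of 40316 in the egg, 45184 at 1 cell, 92115 at 16 cells and 98096 at 128 cells, and unbound counts of 70419, 58534, 45776 and 30001. CDT1 moved in the same way, with r of -0.56, -0.72, 0.98 and 1.93. The partner genes thus both lay below 0 at 1 cell and above 0 at 16 cells. At 3.5 and 5.3 hpf r was 1.55 and 0.77 for GMNN and 1.16 and 1.57 for CDT1. GMNN amount was 50177 at 3.5 hpf and 18893 at 5.3 hpf, after 32690 to 67277 early, and did not pass the test (limma, adjusted p = 0.22).

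The gene mad2l1bp, whose human counterpart p31comet silences the spindle checkpoint, had r of -0.98, -0.29, 1.23 and 1.84, and then 0.29 and 0.91. Further division genes, named after their values were seen, were RACGAP1, part of the centralspindlin complex of cytokinesis (-0.83, -0.7, 1.46 and 1.94), ESCO2, which acetylates cohesin (-0.67, -0.91, 1.04 and 1.5), bora, an activator of Aurora A (-1.03, -1.09, 0.49 and 1.02) and PARP1, which senses DNA breaks (-0.9, -0.47, 0.99 and 1.85). RACGAP1, ESCO2 and PARP1 stayed above 0.9 at both late stages, and bora stood at -0.26 and 0.03. CCND1, the cyclin D1 gene, was a scarce mRNA before genome activation and is described with the late amounts.

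Nucleolar genes, also named after their values were seen, shared the step of the other members. The nucleolin gene ncl was the most abundant of them. Its bound normalized counts were 46583, 49534, 121466 and 138146 from egg to 128 cells and 185276 and 216311 at the late stages, and its r was -0.85, -0.52, 0.76, 1.43, 2.28 and 2.02. FBL, which codes for the rRNA methyltransferase fibrillarin, had r of -0.81, -0.32, 1.65, 2.0, 0.93 and 0.23, and NAT10, an RNA acetyltransferase gene, -0.6, -0.5, 0.88, 1.59, 1.47 and 1.41. The median over the 11 list members was -0.92, -0.58, 0.59, 1.16, 1.2 and 1.18. Over all 101 eligible genes of that list it was -0.98, -0.72, -0.54, -0.4, 0.7 and 0.85, so the list as a whole stood below 0 at 128 cells and above 0 at 3.5 hpf. ttf1.4 and ttf1.5 are near-identical in name and may share reads.

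Splicing genes formed another set. PRPF3, a component of the U4/U6 small nuclear ribonucleoprotein, had bound normalized counts of 12713, 13216, 29303 and 31490 from egg to 128 cells and unbound counts of 24067, 24958, 12222 and 10651. SF3B3, part of the branch point recognition complex, had r of -0.61, -0.19, 0.72 and 1.65, and PRPF38A, a spliceosome activation factor gene (named after its values were seen), -1.18, -0.93, 0.45 and 0.67. LSM14B, the remaining member of the fixed list, codes for an RNA-binding protein known from mouse oocytes as a regulator of stored mRNA, and is no splicing factor. The whole list behaved otherwise: its 88 eligible genes had a median r of 1.77 in the egg, 1.5 at 1 cell, 2.14 at 16 cells and 2.25 at 128 cells. The 4 members on the list thus stood below it in the egg by their choice, and at 3.5 hpf they had a median of 1.76 beside 1.59 for the list. LSM14B, at -1.02 at 3.5 hpf, is counted among these 4.

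Transcription, signalling and traffic genes were further groups, with 23, 14 and 20 of the 137 members that were given a role by hand. The general transcription factor genes GTF2E2 (-1.35, -0.71, -0.46 and 0.76) and GTF2H5 (-1.5, -1.22, -0.46 and 0.61) crossed 0 after 16 cells, later than most members. In the Wnt pathway, the receptor gene FZD7 had -0.92, -0.55, 0.53 and 1.18, and DVL3, whose product relays the signal inside the cell, -1.12, -1.05, 0.26 and 0.92. Among chromatin genes, brd3a, a reader of acetylated histones, had -0.96, -0.94, 0.41 and 0.86, and the histone acetyltransferase gene KAT7 -1.23, -1.2, 0.27 and 0.92. SETD3, counted in the chromatin list by its symbol, codes for an actin histidine methyltransferase and had -1.14, -0.84, 0.76 and 1.57.

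VPS26B, a retromer subunit gene, had r of -1.58, -1.07, 0.18 and 1.1. RAB32, a small GTPase gene of organelle biogenesis, had -1.03, -0.53, 0.62 and 0.96, arf6b, of the ARF family, -0.83, -0.18, 0.98 and 1.15, and the exchange factor gene ARHGEF7 -0.73, -0.92, 0.44 and 1.12. KPNA4, an importin alpha gene, had -0.87, -0.96, 0.76 and 1.51. The germ cell gene PIWIL1, which codes for a piRNA-binding protein, had -0.83, -0.95, 0.82 and 1.17, and was the only member of the 48 eligible genes in the germ plasm and oocyte list. The chaperone genes dnaja1 (-1.33, -1.39, -0.49 and 1.25), DNAJB11 (-0.76, -0.75, 0.99 and 1.31) and FKBP14 (-0.65, 0.3, 0.97 and 1.4) moved at different steps. The fixed lists also named EIF3J, a subunit gene of initiation factor eIF3 (-0.97, -0.16, 0.86 and 1.31), PSMC4, a proteasome ATPase gene (-0.68, -0.73, 0.94 and 1.44), the microtubule and dynein genes MAPRE2 (-1.32, -2.04, 0.17 and 0.95) and DYNLL2 (-1.63, -1.11, 0.25 and 0.81), the phosphatase gene PTPN9 (-0.98, -1.07, 0.15 and 1.06) and the zinc finger genes znf280d (-0.57, -0.5, 1.13 and 1.65) and ZCCHC7 (-1.29, -1.05, 0.12 and 0.88).

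At 128 cells the choice had cut off values of r below 0.5, which left the members with narrow quartiles of 0.88 and 1.43. A wider range at later stages was therefore built in. At 3.5 hpf their median r was 0.66 with quartiles of -0.08 and 1.4, and at 5.3 hpf 0.31 with quartiles of -0.37 and 1.03. The eligible genes had medians of -0.11 and -0.18. Their quartiles were -0.86 and 1.04 at 128 cells, -0.97 and 0.75 at 3.5 hpf, and -0.77 and 0.47 at 5.3 hpf. An r of 0.5 or more was held by 175 members (58.3%) at 3.5 hpf and 128 (42.7%) at 5.3 hpf, beside 31.9% and 23.9% of eligible genes. At 128 cells the choice had put all members there, beside 38.6% of eligible genes, so the late shares are not free of it. From 128 cells to 3.5 hpf, r moved down by at least 1 in 100 members and up by at least 1 in 17, which is 33.3% and 5.67%, beside 27.1% and 16.9% of eligible genes. The starting value of this step was set high by the choice. Of the 300, 279 (93.0%) had a higher r at 5.3 hpf than in the egg, beside 41.8% of eligible genes. The choice had set the members' egg value low.

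The level of r rests on how fractions were scaled against each other. With each library scaled to its total, the members' median r was -1.66, -1.3, -0.22, 0.55, 0.2 and -0.02 over the 6 stages, and the eligible median lay between -0.71 and -0.51, so the sign at 16 cells and at 5.3 hpf turned while the order of the first 4 stages did not. The sequencing files also hold 4 entries with names unlike those of zebrafish transcripts, which took 0.52% to 2.25% of reads in the fractions and 5 to 59 reads in each unfractionated library. What they are is not given in the sources used here. Scaled to these entries, the members' median r was -2.64, -3.13, -1.53, -0.08, -0.98 and 0.5, which turns the difference from egg to 1 cell downward and that from 3.5 to 5.3 hpf upward, leaves the median below 0 at 128 cells, and brings the differences from 1 to 16 and from 16 to 128 cells close to each other. The eligible median likewise went from -1.75 at 3.5 hpf to 0.01 at 5.3 hpf.

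The test of the late ratio used the 8 bound and unbound libraries of 1 cell, 16 cells, 3.5 hpf and 5.3 hpf, none of which chose the members. Stages stood in for replicates there, with 2 residual degrees of freedom, so p-values measure spread between stages. Part of that spread was the difference in r between 1 and 16 cells, which the choice of members favoured. The error term of the members was thus not free of the choice, and their number of calls depends on it. In limma with Benjamini-Hochberg adjustment over 24693 genes, 3 members were more bound than unbound at the late stages and 0 less, against 0.308% of all genes higher and 0.413% lower. The 3 members make up 1.0% of the 300. At an unadjusted p of 0.05, 85 members were higher and 15 lower, beside 7.88% and 11.6% of all genes tested. The median late ratio was 0.54 for members and -0.16 for eligible genes, and 209 members (69.7%) lay above 0, against 43.4% of eligible genes. The number of calls depended on which stages were used: without 1 cell, or without 16 cells, it was 42 higher and 5 lower (855 and 1386 over all genes without 1 cell, 846 and 1377 without 16 cells), and without 3.5 hpf or without 5.3 hpf it was 0 in both directions.

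The 3 called members were hp1bp3, a linker histone-like heterochromatin protein gene, and the spliceosome genes RBM17 and IK. For hp1bp3 the bound normalized counts were 3905, 7383, 12776 and 12474 at 1 cell, 16 cells, 3.5 hpf and 5.3 hpf, and the unbound counts 3352, 5035, 1070 and 2282. Bound RNA exceeded unbound at each of these stages, most at 3.5 hpf. Its late ratio was 3.01 (SE 0.38, adjusted p = 0.0423 in limma), an 8.07-fold excess of bound over unbound. For RBM17, r was -0.83, -0.43, 2.35 and 2.07 at those stages, with a late ratio of 2.21 (SE 0.34, adjusted p = 0.0423 in limma). For IK, r was -0.96, 0.15, 2.98 and 2.02, with a late ratio of 2.5 (SE 0.41, adjusted p = 0.0447 in limma). All 3 calls were lost without the filter on low values (adjusted p of 0.062, 0.062 and 0.0627) and with scaling to the 4 entries (0.18, 0.42 and 0.333).

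The late ratio minus that of 1 and 16 cells had a median of 0.56 in members and -0.29 in eligible genes. This baseline was not free of the choice. At 1 cell the members' median r (-0.67) lay near the egg value that was set low. At 16 cells (0.51) it lay toward the 128-cell value that was set high. No member passed the test in limma, where the background was 0% higher and 0.00405% lower. At an unadjusted p of 0.05, 56 members were higher and 6 lower, 20.7% in all beside 19.0% of all genes tested (5.24% higher and 13.8% lower), and edgeR on the 116 members joined to a transcript called 0 in either direction. Without 16 cells, or without 1 cell, limma called more genes, over all genes tested as well as among members. Without 16 cells the calls were upward among members but mostly downward over all genes tested. Without 1 cell they were mostly downward in both. Such fits rest on a lone cleavage stage, so their counts say little about the members in particular. RBM17 had the smallest adjusted p of the members, 0.0658, at a difference of 2.84.

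In 105 members (35.0%) r was 0.5 or more at both late stages, against 16.1% of eligible genes, and in 26 (8.67%) it was -0.5 or less at both, against 22.4%. The choice had set the members' 128-cell values high, so these contrasts are not free of it. Genes equally bound at 128 cells were not set beside them. When members were sorted by hand into roles, after their values were seen, 17 of 21 splicing and mRNA processing genes, 7 of 10 cytoskeleton genes, 6 of 12 nucleolar genes and 8 of 17 cell division genes were in the first class. The splicing and mRNA processing genes had a median r of 1.14 at 128 cells, 1.66 at 3.5 hpf and 1.19 at 5.3 hpf. High late values were not particular to these members. All 88 eligible genes of the splicing list had medians of 1.59 and 1.27 at the late stages, and all 101 of the nucleolar list 0.7 and 0.85. Transcription factor and general transcription genes were split, with 8 of 23 in the first class and 5 in the second. Translation and protein quality genes had 2 of 10 in each.

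Single genes show both ends. PRPF3 went on to r of 2.97 and 2.24, sde2 to 3.38 and 1.97, FLOT2 to 3.21 and 1.49, hmgn1a to 2.83 and 1.7 and dnaja1 to 2.58 and 1.4. At the other end ABCD3, a peroxisomal fatty acid transporter gene, was at 1.25 at 128 cells, -4.77 at 3.5 hpf and -2.03 at 5.3 hpf. Its bound normalized counts were 5905 at 128 cells, 299.0 at 3.5 hpf and 142.4 at 5.3 hpf, and its unbound counts 2488, 8170 and 583.7. Bound RNA was thus far below unbound RNA at 3.5 hpf. LSM14B went from 1.15 to -1.02 and -2.41, UNC50, a Golgi membrane protein gene, from 1.1 to -1.93 and -0.58, ELK4 from 0.94 to -0.91 and -1.0, and the nucleotide sugar transporter gene SLC35B1 from 0.87 to -0.95 and -0.72. PSMC4 changed sides between the late stages, at -1.05 and then 1.96.

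**Figure D4:**
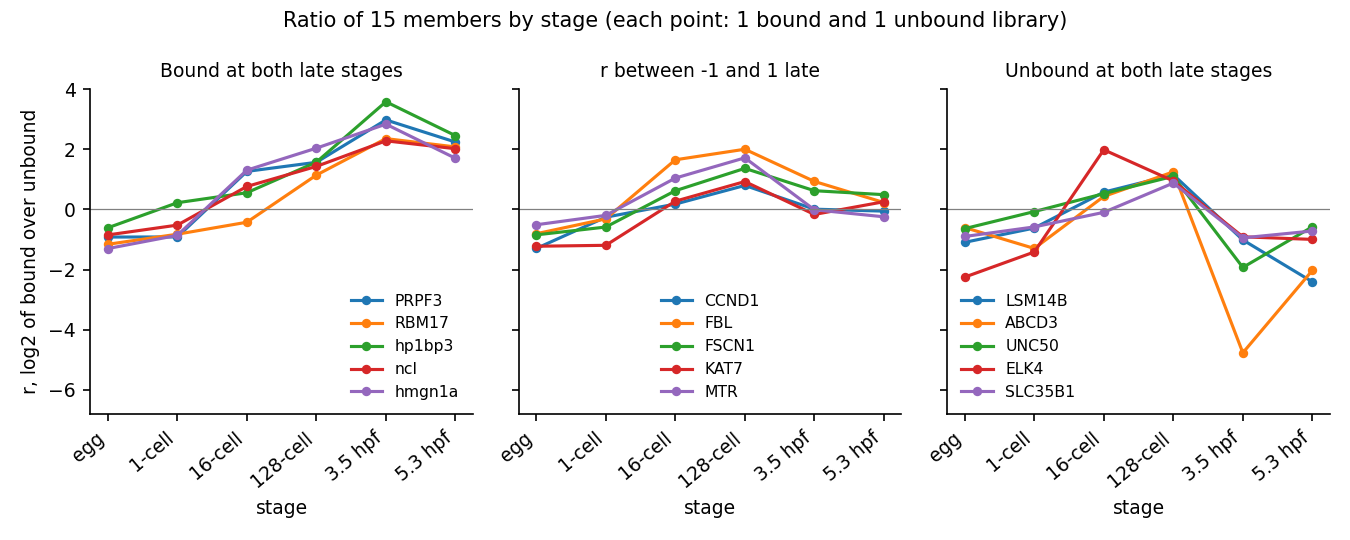
The vertical axis is r (log2 of bound over unbound normalized counts) and the horizontal axis the 6 stages, for 15 members picked after their values were seen to show the range, with 1 bound and 1 unbound library behind each point. All 15 lie below 0 in the egg and above 0 at 128 cells by the choice of members. At the late stages the left panel stays above 1.5, the middle panel lies between -1 and 1, and the right panel is below -0.5, with ABCD3 at -4.77 at 3.5 hpf.

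After genome activation the members' amounts spread out to both sides of their 128-cell amounts, with a median near them. In unfractionated RNA the members' median differed from that at 128 cells by 0.17 (log2) at 3.5 hpf and 0.16 at 5.3 hpf, while the eligible genes' medians differed by -0.23 and -0.47. The 128-cell amount was a low baseline for members. Their medians in the egg, at 1 cell and at 16 cells differed from it by 0.28, 0.27 and 0.18. Those of eligible genes differed by 0.03, 0.04 and 0.04. At 5.3 hpf 55 members (18.3%) were lower than at 128 cells by at least 1 (log2), beside 35.9% of eligible genes, and 74 (24.7%) were higher by at least 1, beside 15.1%. The 300 genes with the opposite course, bound in the egg and unbound at 128 cells by the largest difference, had medians of -1.24 and -1.88, and 221 of them (73.7%) were lower by at least 1 at 5.3 hpf. These shares were not tested against each other.

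Tested over the 6 unfractionated libraries, 27 members rose and 21 fell at the 2 late stages relative to the 4 early ones (limma, 23949 genes, 4 residual degrees of freedom between stages). That is 9.0% higher and 7.0% lower. Over all genes tested 22.5% were higher and 13% lower, and over the eligible genes, which share the members' minimum amount, 7.36% were higher and 23.2% lower. The members' share of rises was near that of eligible genes, and their share of falls was lower. The median late difference was -0.03 for members and -0.37 for eligible genes. With all libraries centred on the eligible median, 62 members (20.7%) were higher and 4 (1.33%) lower, beside 15.4% and 12.5% of eligible genes. Without the 3.5 hpf library, 61 were higher and 72 (24.0%) lower, beside 37.6% of eligible genes lower, and without 5.3 hpf 13 were higher and 1 lower. Without one of the early libraries the counts were 17 and 3 (egg), 18 and 4 (1 cell), 16 and 4 (16 cells) and 17 and 7 (128 cells). As shares of members these were 5.67% and 1.0%, 6.0% and 1.33%, 5.33% and 1.33%, and 5.67% and 2.33%. Eligible genes had 4.87% and 12.6%, 5.09% and 13.9%, 4.72% and 12.4%, and 5.24% and 14.5%, so their calls became fewer too. In bulk RNA of whole embryos, more or fewer cells holding an mRNA and more or less of it per cell cannot be told apart, nor can kept maternal mRNA from newly made mRNA.

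**Figure D5:**
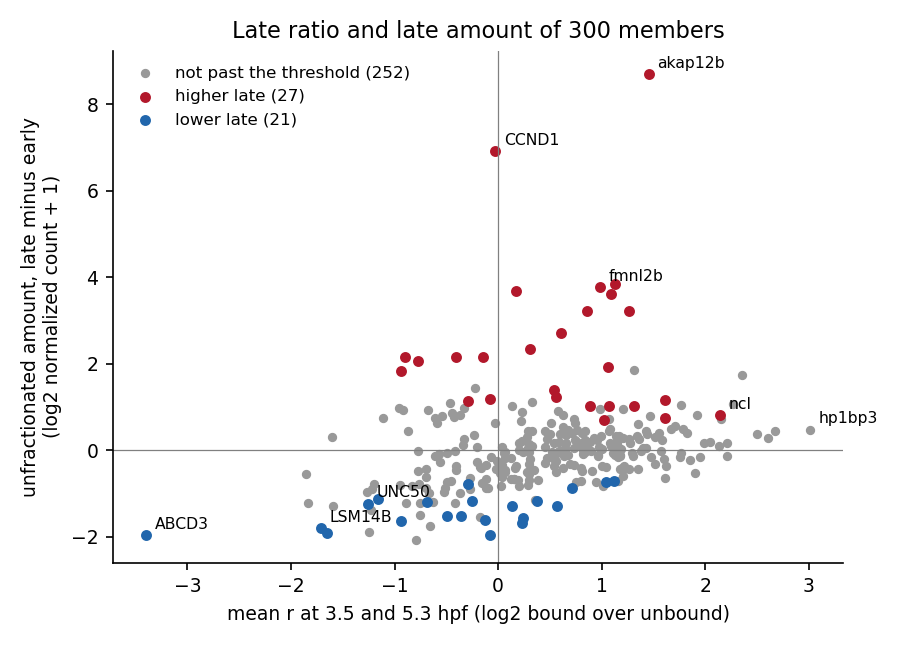
The horizontal axis is the mean r of a member at 3.5 and 5.3 hpf and the vertical axis the log2 difference in unfractionated amount between the 2 late and the 4 early stages. Each point is 1 of 300 members, in red where the amount was higher (27), in blue where lower (21) and in grey where it did not pass the test. Most points lie near 0 on the vertical axis, akap12b and CCND1 lie far above it, and ABCD3 lies at the lower left.

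The largest rise was that of akap12b, which codes for a scaffold of protein kinase A. Its amount in unfractionated RNA was 220.1 normalized counts in the egg, 190.1 at 1 cell, 195.9 at 16 cells, 474.7 at 128 cells, 57723 at 3.5 hpf and 187016 at 5.3 hpf. Both late libraries thus lay far above all early ones, a log2 difference of 8.69 (SE 0.54, adjusted p = 0.000341 in limma). The amounts of CCND1 were 196.9, 145.8, 282.3, 347.4, 16934 and 45624, a difference of 6.91 (SE 0.49, adjusted p = 0.000347 in limma). Although CCND1 met the conditions as a member, its amounts after 128 cells were far above all early ones, and its late r was 0.01 and -0.06.

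The formin gene fmnl2b had amounts of 296.9, 634.2, 249.4, 258.0, 3079 and 6713, and a difference of 3.77 (SE 0.49, adjusted p = 0.00179 in limma). These 3 mRNAs were scarce early. Among the abundant members that rose, ncl had amounts of 49163, 49020, 51274, 51105, 64004 and 121833, a difference of 0.82 (SE 0.25, adjusted p = 0.0384 in limma), and ZNF395 rose by 0.75 (adjusted p = 0.0492 in limma). The monocarboxylate transporter gene SLC16A1 had amounts of 1514, 1917, 1281, 1543, 2058 and 15374, high at 5.3 hpf only, and did not pass the test (adjusted p = 0.0664 in limma).

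Falls were smaller. UNC50 had amounts of 1106, 1058, 1091 and 1034 in the early libraries and 592.2 and 350.1 in the late ones, a difference of -1.23 (SE 0.29, adjusted p = 0.0169 in limma). Its early values lay close together, and both late values were below them. MTR, the methionine synthase gene, fell by 1.6 (adjusted p = 0.0187 in limma), SIRT7, a nucleolar deacetylase gene, by 1.18 (adjusted p = 0.019 in limma) and RASSF4, a Ras association domain gene, by 1.52 (adjusted p = 0.0212 in limma). All but MTR lost the call without 5.3 hpf. SIRT7 also lost it without 1 cell (adjusted p = 0.0517 in limma) and with median centring (0.0562), and RASSF4 without the egg (0.0561) and without 16 cells (0.0543). LSM14B, whose r was below 0 at both late stages, had amounts of 10710, 13974, 8232, 11328, 6354 and 1536 and fell by 1.8 (adjusted p = 0.0302 in limma), and ABCD3 fell by 1.95 (adjusted p = 0.0366 in limma). The calls of LSM14B and ABCD3 were lost without the egg and without 5.3 hpf.

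Late amount was set beside the late ratio. Among the 105 members at an r of 0.5 or more at both late stages, 12 rose and 1 fell, with a median of 0.67 at 5.3 hpf relative to 128 cells. Among the 26 members at -0.5 or less at both, 2 rose and 6 fell, with a median of -1.48. Among the other 169, 13 rose and 14 fell, with a median of -0.2. At 3.5 hpf the medians of the 3 classes were 0.29, 0.09 and 0.12. The late classes were formed from the late ratios of these same genes, and the difference between them was not tested. Amounts of eligible genes in the same classes were not set beside these, so the values do not set the members apart.

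By role, with the sorting made after values were seen, no gene of the splicing and mRNA processing, cytoskeleton, signal transduction or transcription groups fell (0 of 21, 10, 14 and 23). Of all members 7.0% fell, so a count of 0 in groups this small does not set them apart. With a pseudocount of 10 the splicing and mRNA processing genes counted 1 fall. Without the 3.5 hpf library the falls were 1, 0, 2 and 7 in these groups, and without 128 cells the transcription group counted 1. Cytoskeleton genes had 4 of 10 rises, beside 9.0% of all members and 7.36% of eligible genes. The count was 5 with median centring, 1 without the egg and 2 without 1 cell, 16 cells or 128 cells. With edgeR it was 1 of the 4 genes joined to a transcript. Cell division genes had 1 rise, CCND1, and 2 falls among 17. In the lists set up for this description, all 88 eligible genes of the splicing list counted 24 rises and 6 falls. The 4 members on it had 0 rises and 1 fall, that of LSM14B, which is no splicing factor. Of 124 eligible cell cycle genes 8 rose and 35 fell, and of their 4 members 1 rose and 0 fell. Of 48 eligible germ plasm and oocyte genes 0 rose and 26 fell, while PIWIL1, with amounts of 2005, 2379, 2291, 1298, 2063 and 1876, did not pass the test (adjusted p = 0.964 in limma).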

How the data were processed

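The gene table deposited by the authors holds a signal, normalized counts for 27015 genes in 18 libraries. Its normalization step is not given in the sources used here. Estimated counts from Salmon, per the file headers of the transcript tables, were used for depth (the deposited expected counts summed per library) and, rounded to whole numbers, for edgeR. The deposited transcript length (in bases, another unit) was matched to 38.7% of members, so no length comparison was made. Per the submitters' processing notes, the build was GRCz10, and the tools included Salmon 0.6.0, STAR 2.4.2a, Cufflinks 2.2.1 and DESeq2. Ribosomal RNA was depleted and libraries were stranded, per the labels.

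The ratio r, its steps and the member features were described without tests. The 4 tests (late ratio, late minus cleavage ratio, late amount, early slope) used limma 3.58.1 (trended variance; log2 scale, pseudocount 1), in R 4.3.3. Genes needed 10 normalized counts in 2 libraries of the fit, p-values were adjusted by Benjamini-Hochberg over all genes tested, and the threshold was 0.05. All 300 members were tested in each. Where transcripts could be joined to genes by equal values (tolerance 0.001 reads, 12877 genes), edgeR 4.0.16 was the alternative. The fits were run on simulated counts with planted changes and no other drift between stages. That run does not cover their error rate on these data, where the spread comes from differences between stages. Gene symbols came from a name table. Members and lists were chosen with earlier results of these data known. Genes named were the 12 with the largest difference, up to 3 per list by early amount, up to 4 per test and direction by p, and those at the edge of the choice, and others are marked as chosen after their values were seen. A few genes that this rule names are not reported here. Other alternatives were another pseudocount (10), no filter, library totals, median centring, scaling to the 4 unnamed entries and leaving out each stage.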

Additional observations from a re-analysis of the deposited data

How the results depend on the processing

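Choosing members by the value at 16 cells in place of 128 cells gave 217 genes, 114 of them among the 300. The other ways of choosing gave 290 to 430 genes, but not always the same ones. Library totals kept 165 of the 300, 1 cell in place of the egg 179, a minimum of 500 normalized counts 215, centring on the eligible median 280 and a pseudocount of 10 kept 296. Scaling to the 4 unnamed entries, an alternative added after seeing the data, kept 35.

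For the late ratio, members called higher and lower were 10 and 2 with a pseudocount of 10 (242 and 247 over all genes). With no filter there were 0 and 0 (0 and 0 over all genes), and with library totals 5 and 8 (117 and 743). With median centring there were 12 and 1 (331 and 137), and with the 4 entries 0 and 1 (6 and 151). The balance of higher and lower calls thus moved with the scaling over all genes too. Leaving out 1 stage gave 0 to 42 higher and 0 to 5 lower. For the late minus cleavage ratio it gave 0 to 24 and 0 to 4. For the late amount, 8 members were lower with library totals, 62 higher and 4 lower with median centring, and 9 higher and 3 lower with edgeR on 116 joined members. Leaving out 1 stage gave 13 to 61 higher and 1 to 72 lower. In each of these 11 alternatives the share of members called lower was below that of the eligible genes tested. The early slope gave 0 members in either direction under each alternative, with 0 to 0 on leaving out 1 stage. Fits without a stage have fewer libraries, and a lone stage is assumed to vary like the others. The cause of the other shifts was not tested.

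The ratio tests pair the bound and unbound library of each stage. Beyond this no pairing by replicate exists, since the labels carry no replicate numbers. The counting error of the difference in r exceeded 0.2 in 35 members.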
